A study of Mus musculus with 16 samples.

Results

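The first hour after transcription was blocked was read from 4 of the 16 libraries of the series, the 2 files labelled Nat10-deficient at 0 h and the 2 files so labelled at 1 h of 5 µM actinomycin D, across 25081 genes tested. Per the labels, lineage-depleted mouse bone marrow cells were kept in StemSpan medium with 10 ng/mL stem cell factor, 20 ng/mL thrombopoietin and 10 µg/mL heparin, actinomycin D was added, and stem cells were then sorted, a separate sort for each time. All groups shared this culture and the drug, so the 0 h cells are the reference and no vehicle control was used here. The comparison group was WT at 0 and 1 h, with 2 files each. The genotype is given as Nat10 deficiency in one label and as Nat10-/- in another, and the allele, any Cre driver, the age of the animals and the pooling of animals are not given in the sources used here. The titles of the samples read 32D, which is the name of a mouse myeloid cell line, while the cell type label gives long-term haematopoietic stem cells (LT-HSCs), and the sources do not settle which is meant.

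Actinomycin D intercalates into DNA and stops RNA polymerases, so that after its addition an mRNA can only stay or be lost. Short-lived mRNAs in mammalian cells typically encode immediate-early transcription factors, cytokines and the inhibitors that switch signals off. Many carry AU-rich elements in the 3′ untranslated region (UTR), built from overlapping AUUUA pentamers, to which decay factors such as the Zfp36 proteins bind and recruit the deadenylase complex. Nat10 acetylates cytidines of RNA, giving the modified base ac4C, and the study measured mRNA lifetimes to ask how that mark and the binding of the enzyme bear on mRNA stability.

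To show what such elements look like in these genes, the 30-base stretch of the 3′ UTR richest in the motif is printed for 7 genes that fell and for 2 that did not fall on the main scale, from 1 GENCODE M21 (GRCm38) transcript a gene. Capitals mark ATTTA, the DNA spelling of the pentamer, and the strand is that of the transcript.
Lif: agaagcaaaggggcctttATTTAttATTTA
Socs3: actcagactttgcacatatATTTAtATTTA
Cish: acacagttatacagtATTTATTTATTTAtt
Pim1: agttttaatgtATTTATTTATTTATTTAtt
Csrnp1: ttttacattaacactctgaATTTATTTAtt
Zfp36: ggccctttATTTAtgacgactttATTTAtt
Fos: cgtttttattgtgttttcaATTTATTTAtt
Rplp0: tctcttaaaactccggtctggATTTATTTA
Eef1a1: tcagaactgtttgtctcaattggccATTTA
The stretches of Pim1 and Fos begin 939 and 634 bases after the stop codon. Rplp0 and Eef1a1, whose mRNAs were higher relative to other genes, hold pentamers too. Gadd45g and Bhlhe40, with log2 changes of -3.53 and -3.02, hold 0 pentamers in the 3′ UTR of the transcript used. The motif alone therefore did not separate the genes.

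Nat10 mRNA itself (ENSMUSG00000027185, chromosome 2, 103551601 to 103591615, GRCm39) stood at 117 and 121 CPM at 0 h and at 101 and 107 at 1 h, where CPM are counts per 1000000 counts of genes other than immunoglobulin genes. It was therefore present in every library labelled Nat10-deficient, and per gene counts do not show whether a deleted exon is missing. It fell by 0.19 on the log2 scale (SE 0.049), to 87.5% of its 0 h level.

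The libraries held 14703917 to 17274128 counts. Both files of each group differed by little more than counting noise, with a chi-square per degree of freedom of 1.757 at 0 h and 1.697 at 1 h against 77.62 between the times, and in 8 of 8 groups one alignment is named in the header of either file. The labels call the replicates biological, yet p-values here measure only the spread between these files, which may be technical. Stem cell markers were detected (Kit at 493 and 496 CPM, Procr at 42.2 and 43.2, all at 0 h), together with markers of other cells: Cd34, which mouse LT-HSCs lack or hold at a low level, stood at 702 in both files, Mpo at 6310 and 6266, and immunoglobulin genes took 6.46% and 6.42% of gene counts. Each time is a separate sort, and in these bulk samples fewer cells of a type and less RNA per cell cannot be told apart.

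Relative to the other genes, about as many genes were higher as were lower after the first hour, and large changes of well-measured genes were mostly falls. Scaled on non-immunoglobulin gene counts, 5968 genes (23.8% of 25081) were lower and 6814 (27.2%) higher at 1 h (edgeR quasi-likelihood test, Benjamini-Hochberg adjusted p under 0.05). At least 2-fold falls were called for 3315 genes (13.2%) and rises for 2966 (11.8%), mostly genes with few counts: of the 7679 genes with a mean log2 CPM of at least 4, 329 were at least 2-fold lower and 26 at least 2-fold higher, around a median log2 change of 0.06. Of these 7679 genes 30.3% were lower and 39.9% higher, and of the 675 with a mean log2 CPM of at least 8 these shares were 26.1% and 58.5%, so a list of abundant mRNAs is read against the latter. Rises and falls of the gene lists below are on this scale, relative to other genes, unless ERCC counts are named. When the libraries were scaled on a set of 38 long-lived reference mRNAs instead, the log2 changes moved by -0.13, and 7251 genes were lower and 5102 higher. With the files of a group summed and the 1 h effect fitted over both genotypes, 0 genes passed in either direction with edgeR, and 543 had an unadjusted p under 0.05, while DESeq2 on the single files called 4671 lower and 5514 higher. In that summed fit Egr1, Gadd45g and Irf1 each had an adjusted p of 0.132, the smallest among the genes named here, while in the other alternatives their adjusted p stayed at or under 4.69e-06.

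Scaled on the ERCC spike-ins, which are synthetic RNAs that, per the labels, were given to every sample in the same amount, nearly every well-measured mRNA was lower at 1 h. ERCC counts were 3820 and 3819 at 0 h and 8605 and 8628 at 1 h, and the non-immunoglobulin gene counts per ERCC count went from 4129 and 4232 to 1556 and 1550. Relative to scaling on gene counts, this moved the log2 changes of the better-measured genes by -1.43, to a median of -1.37. On this scale 17204 genes (68.6%) were lower and 1203 (4.8%) higher, 15613 (62.3%) were at least 2-fold lower and 1179 (4.7%) at least 2-fold higher. The summed fit gave 4179 lower, 3 higher, 4065 at least 2-fold lower and 3 at least 2-fold higher. The higher calls were 619 with DESeq2, 724 with only the files of the contrast, 753 without 0 h replicate 1 and 706 without 0 h replicate 2. Of the 7679 better-measured genes, 7670 were lower and 2 were higher, the basophil protease gene Prss34 and an immunoglobulin variable gene. ERCC made up at most 0.0587% of counts in these files and rested on 26 to 37 of 92 species, and 15 species with at least 100 counts rose by a median of 1.22 on the log2 scale of raw counts. In WT the non-immunoglobulin counts per ERCC count were 51.6 and 53 at 0 h and 24.7 and 25 at 1 h, so the spike-in share differed widely between genotypes, and its part in the ERCC-scaled results was not tested.

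**Figure D1:**
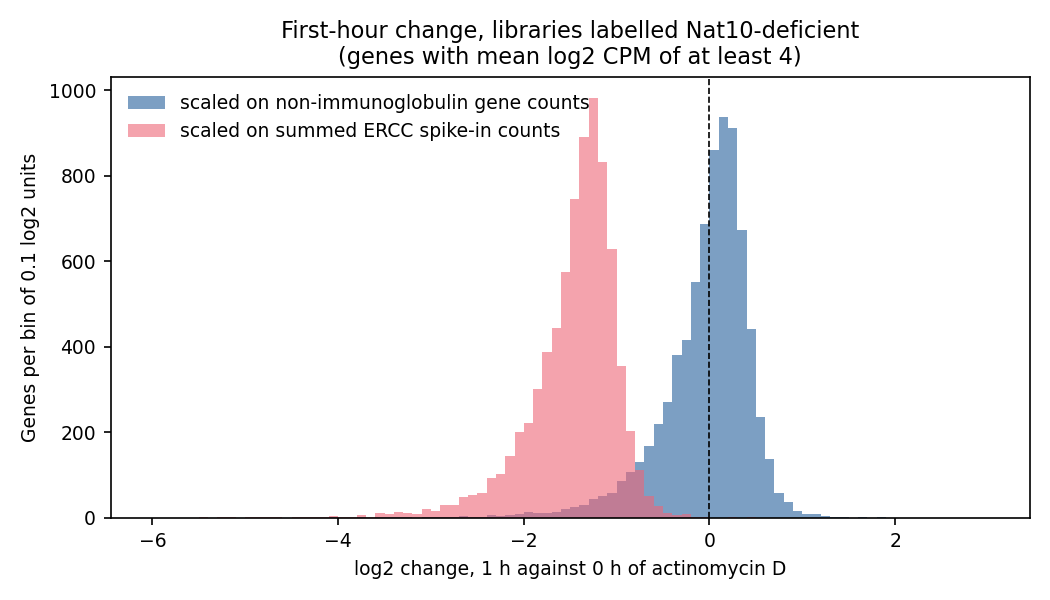
Histogram of the log2 change from 0 to 1 h for 7679 genes with a mean log2 CPM of at least 4, in bins of 0.1, under both scalings. The distribution scaled on gene counts centres on 0.06 with a tail to the left, and the distribution scaled on ERCC counts on -1.37.

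The immediate-early transcription factors were lower in most members. Of 12 AP-1 factors, the Fos, Jun and Atf proteins that bind growth-responsive promoters as dimers, 11 fell and 0 rose (median log2 change -1.04), and of 12 Egr, Nr4a and Klf factors 11 fell and 0 rose (median -1.60), against 23.8% lower among all genes. Egr1, a zinc finger factor induced within minutes by growth signals, stood at 2989 and 3003 CPM at 0 h and at 618 and 614 at 1 h. Both of its 1 h files lay below both 0 h files, as for 33.3% of all genes tested. The log2 change of Egr1 was -2.28 ± 0.021 (SE, adjusted p = 4.04e-221, edgeR quasi-likelihood test), leaving 20.6% relative to other genes and 7.64% per ERCC count. Junb, an AP-1 subunit, went from 2259 and 2364 CPM to 565 and 573. Less was lost of the dimer partners that name the family: Fos went from 1544 and 1560 CPM to 732 and 734, and Jun from 1682 and 1723 to 1078 and 1084. This left 24.6% of Junb, 47.2% of Fos and 63.5% of Jun.

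Other members of these lists fell as well. Atf3, a stress-induced repressor, was left at 16.2% (log2 change -2.63 ± 0.043), the AP-1 subunit Fosl2 at 17.3%, Egr3 at 19.8%, and Klf10, a TGF-beta-induced zinc finger repressor, at 16%. Nr4a1, an orphan nuclear receptor, went from 618 and 614 CPM to 201 and 205, and Klf2, a quiescence factor, from 29.2 and 25.7 to 7.84 and 9.20. Among genes outside the lists, Bhlhe40, a basic helix-loop-helix repressor, fell from 607 and 618 CPM to 71.1 and 79.8, and Csrnp1, a nuclear protein of immediate-early type, from 772 and 756 to 137 and 139. Nab2, a corepressor that binds Egr proteins, was left at 9.04%.

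The inhibitors and decay factors that end such a response were among the mRNAs that fell. Of 23 Dusp, Ier and Spry feedback genes 19 fell and 2 rose (median -1.25), and of 10 Zfp36, Btg and Tob genes 9 fell and 1 rose (median -0.75). Among all genes 23.8% were lower and 27.2% higher. Dusp2, a MAP kinase phosphatase, went from 289 and 287 CPM to 21.4 and 20.0 (log2 change -3.80 ± 0.059), and Dusp5 and Dusp1 of the same family were left at 13.4% and 46.7%. Spry2, an inhibitor of receptor tyrosine kinase signalling, was left at 27.2%, and Errfi1, an inhibitor of the EGF receptor, at 9.80%. Zfp36, which binds AU-rich elements and whose own mRNA carries them, went from 1457 and 1481 CPM to 488 and 499. Btg2, an antiproliferative partner of the deadenylase, went from 1973 and 1947 CPM to 806 and 785, Btg1 was left at 50.6% and Tob2 at 66.2%. Ier2 was left at 35.0%. The deadenylation and decapping machinery as a list did not move one way, with 16 of 43 genes lower, 16 higher and a median of -0.04.

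Cytokine mRNAs and targets of cytokine signalling were among the largest falls. Lif (chromosome 11, 4207557 to 4222514, GRCm39), a cytokine of the interleukin-6 family, went from 71.2 and 72.1 CPM to 5.45 and 3.44, the largest fall among the genes named by the ranking rule (log2 change -4.01 ± 0.13, adjusted p = 1.31e-87). Oncostatin M (Osm), of the same family, went from 371 and 370 CPM to 33.5 and 36.0, and interleukin-10 (Il10), an anti-inflammatory cytokine, from 102 and 95.5 to 8.14 and 8.53. Of 15 JAK-STAT target genes 14 fell and 0 rose (median -1.17), against 23.8% lower among all genes. Socs3 (chromosome 11, 117856905 to 117860873, GRCm39), which blocks JAK kinases bound to cytokine receptors, went from 2182 and 2179 CPM to 163 and 172. Its log2 change was -3.70 ± 0.029 (adjusted p = 8.69e-244), so that 7.68% was left relative to other genes and 2.85% per ERCC count. Cish, another inhibitor of this class, was left at 16.8%, the kinase Pim1 at 25.8%, and Irf1, a transcription factor induced by interferon, at 23.3%. No file at 1 h reached its 0 h level for any of these genes, as was so for 8344 (33.3%) of all genes tested. The ranking rule required this of the largest falls.

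NF-kappaB genes fell as a group as well. Of 15 subunits, inhibitors and targets 14 fell and 0 rose (median -1.07), against 23.8% lower among all genes. Nfkbia, which holds NF-kappaB in the cytoplasm, went from 1034 and 1039 CPM to 433 and 441 (log2 change -1.25 ± 0.027). The subunit gene Rel was left at 20.1% and Relb at 35.3%. Tnfaip3, a ubiquitin-editing inhibitor, was left at 26.2%, the apoptosis inhibitor Birc3 at 35.0%, and the adhesion molecule Icam1, from 754 and 728 CPM to 171 and 180, at 23.7%. Gadd45g, a stress and growth arrest gene, fell from 857 and 852 CPM to 78.0 and 70.3, and Hbegf, a ligand of the EGF receptor, from 669 and 655 to 136 and 133.

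**Figure D2:**
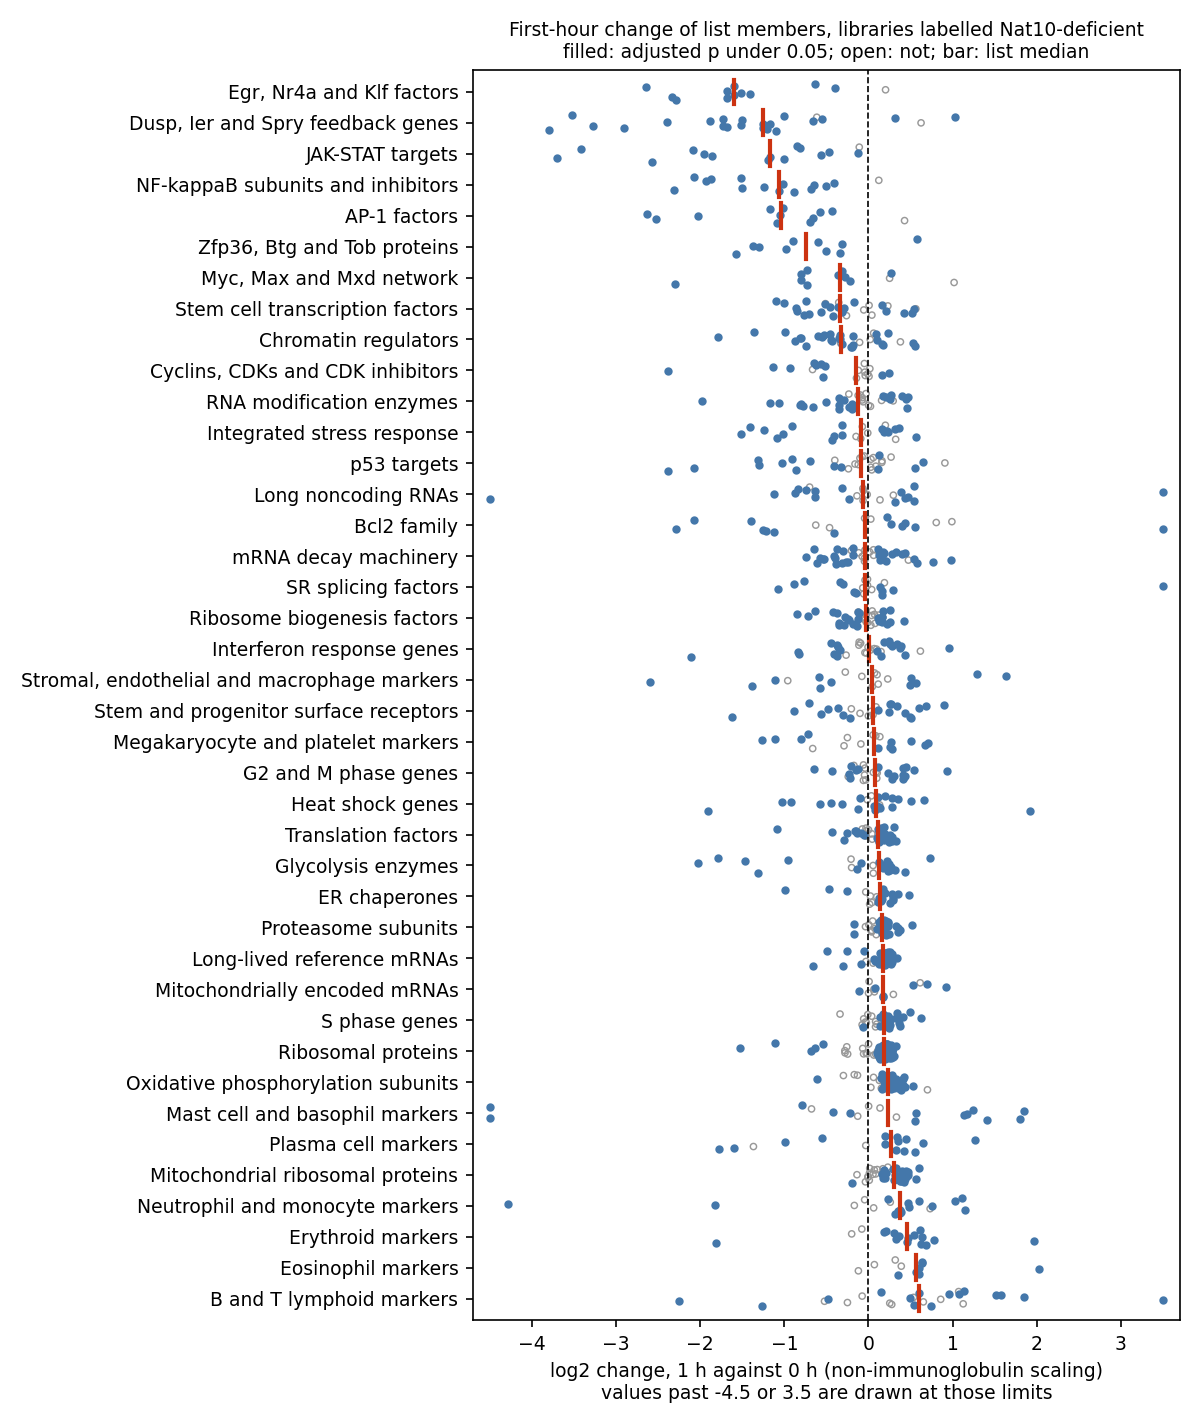
Log2 change from 0 to 1 h (non-immunoglobulin scaling) of each tested member of 40 gene lists, ordered by list median, with filled points for adjusted p under 0.05, open points for the others, a bar for the median, and points past the axis drawn at its limits. The immediate-early, feedback, JAK-STAT and NF-kappaB lists lie at medians of -1.60 to -1.04, and ribosomal, mitochondrial and other cell type lists lie at or above 0.

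Genes of stem cell identity changed in both directions. Of 28 stem cell transcription factors 15 fell and 5 rose (median -0.33), which is 53.6% lower and 17.9% higher. Among the better-measured genes these shares were 30.3% and 39.9%. Of 25 surface receptors 8 fell and 11 rose (median 0.06, a sign that turns with TMM or long-lived mRNA scaling). Their shares of 32% lower and 44% higher are near those of the better-measured genes. Mecom, a zinc finger factor needed for self-renewal, went from 52.7 and 52.5 CPM to 30.1 and 28.1. Runx1 and Gata2, regulators of the emergence and upkeep of these cells, were left at 58.7% and 74.6%. In contrast Gfi1b, a transcriptional repressor that acts in the erythroid and megakaryocytic lineages, went from 209 and 219 CPM to 280 and 294. Erg, an ETS factor, went from 20.2 and 19.2 to 27.2 and 29.3. Procr (chromosome 2, 155593037 to 155597391, GRCm39), the endothelial protein C receptor that marks LT-HSCs, went from 42.2 and 43.2 CPM to 60.6 and 59.8 (log2 change 0.50 ± 0.063, adjusted p = 1.45e-12). Kit, the stem cell factor receptor, was left at 86.0% and Cd34 at 80.8%. Per ERCC count Procr was left at 52.4% and Kit at 31.9%.

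Regulators of growth and death changed in both directions. Of 12 genes of the Myc network 9 fell and 1 rose (median -0.34). Myc went from 442 and 445 CPM to 267 in both files, its relative Mycn was left at 20.3%, and the antagonist Mxd1 at 57.3%. Among p53 targets 10 of 30 fell and 4 rose (median -0.09), a share lower of 33.3% that is near the 30.3% of the better-measured genes. The cell cycle inhibitor Cdkn1a went from 460 and 465 CPM to 91.8 and 85.7, while the p53 ubiquitin ligase gene Mdm2 was left at 55.3%. Of 19 tested Bcl2 family genes 7 fell and 6 rose, which is 36.8% and 31.6%, against 30.3% and 39.9% of the better-measured genes. Mcl1, a short-lived survival protein, was left at 41.9%, the survival gene Bcl2l1 was left at 46.0% and the death-promoting Bcl2l11 at 37.8%. Of 30 S phase genes 19 were higher and 1 was lower (median 0.19), which is 63.3% higher against 39.9% of the better-measured genes, while per ERCC count 30 of the 30 were lower (median -1.24). Among them was the thymidine kinase Tk1, which went from 117 and 118 CPM to 164 and 167. Of 30 G2 and M phase genes 12 rose and 7 fell. Cenpa, the centromeric histone, was 1.45-fold higher and the mitotic kinase gene Cdk1 was left at 86.0%.

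Among sugar uptake and chromatin genes the size of the change varied widely. Of the better-measured genes 30.3% were lower and 39.9% higher, and of those with a mean log2 CPM of at least 8 26.1% and 58.5%. Glycolysis enzymes and transporters as a list had 7 of 23 genes lower and 12 higher, yet the glucose transporter Slc2a1 fell from 210 and 214 CPM to 78.7 and 74.6, the hexokinase Hk2 was left at 40.1%, and Pfkfb3, which makes the activator of phosphofructokinase, at 29.0%. Chromatin regulators had 21 of 33 genes lower and 7 higher (median -0.33). Per ERCC count 23 of 23 glycolysis genes and 33 of 33 chromatin regulators were lower. The histone demethylase Kdm6b went from 282 and 280 CPM to 80.7 and 82.3, and Jmjd1c, of the same enzyme class, was left at 39%. Among 388 zinc finger protein genes 146 were lower and 84 higher (median -0.15), which is 37.63% and 21.65%, against 23.8% and 27.2% among all genes.

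RNA modification enzymes, the class to which Nat10 belongs, had 16 of 35 genes lower and 8 higher (median -0.12). These shares are 45.7% and 22.9%, against 30.3% and 39.9% of the better-measured genes. Ythdf2, the reader that brings m6A-marked mRNAs to decay, went from 436 and 434 CPM to 189 and 196, which left 44.3%. Cbll1, a subunit associated with the m6A writer, was left at 56.9%. The writer's catalytic subunit Mettl3 went from 50.7 and 55.6 CPM to 73.2 and 72.3, and the pseudouridine synthase Pus7 from 76.2 and 79.9 to 110 and 107.

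The mRNAs of basic cell machinery were mostly higher relative to other genes and lower per ERCC count. Of 78 ribosomal protein genes 60 were higher and 5 lower (median 0.19), which is 76.9% higher against 27.2% among all genes and 58.5% among the most abundant ones. Of 52 nuclear-encoded oxidative phosphorylation subunits 40 were higher and 1 lower (median 0.23), of 40 mitochondrial ribosomal proteins 26 and 1 (median 0.30), and of 34 proteasome subunits 24 and 2 (median 0.17). Per ERCC count 78 of the 78 ribosomal protein genes, 52 of the 52 oxidative phosphorylation subunits, 40 of the 40 mitochondrial ribosomal proteins and 34 of the 34 proteasome subunits were lower, with medians of -1.24, -1.20, -1.13 and -1.26, where the median over all genes was -1.33. Rplp0, a stalk protein of the large ribosomal subunit, went from 4001 and 3951 CPM to 4819 in both files, 45.0% per ERCC count. Rps20 went from 309 and 312 CPM to 388 and 392, and Atp5g1, a subunit of ATP synthase, from 267 and 265 to 354 and 358. Rps10 fell, but from at most 14.1 CPM, and ribosomal protein genes have many near-identical copies over which reads can be split, so this fall is uncertain. Eef1a1, the translation elongation factor, went from 13459 and 13417 CPM to 14760 and 14626, a log2 change of 0.13 ± 0.014 that turned to -0.0015 when long-lived mRNAs set the scale. Gapdh, a glycolytic enzyme, was 1.15-fold higher and the cytoskeletal actin Actb was left at 81.2%. The nuclear noncoding RNAs Malat1 and Neat1 were 1.24-fold and 1.45-fold higher.

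**Figure D3:**
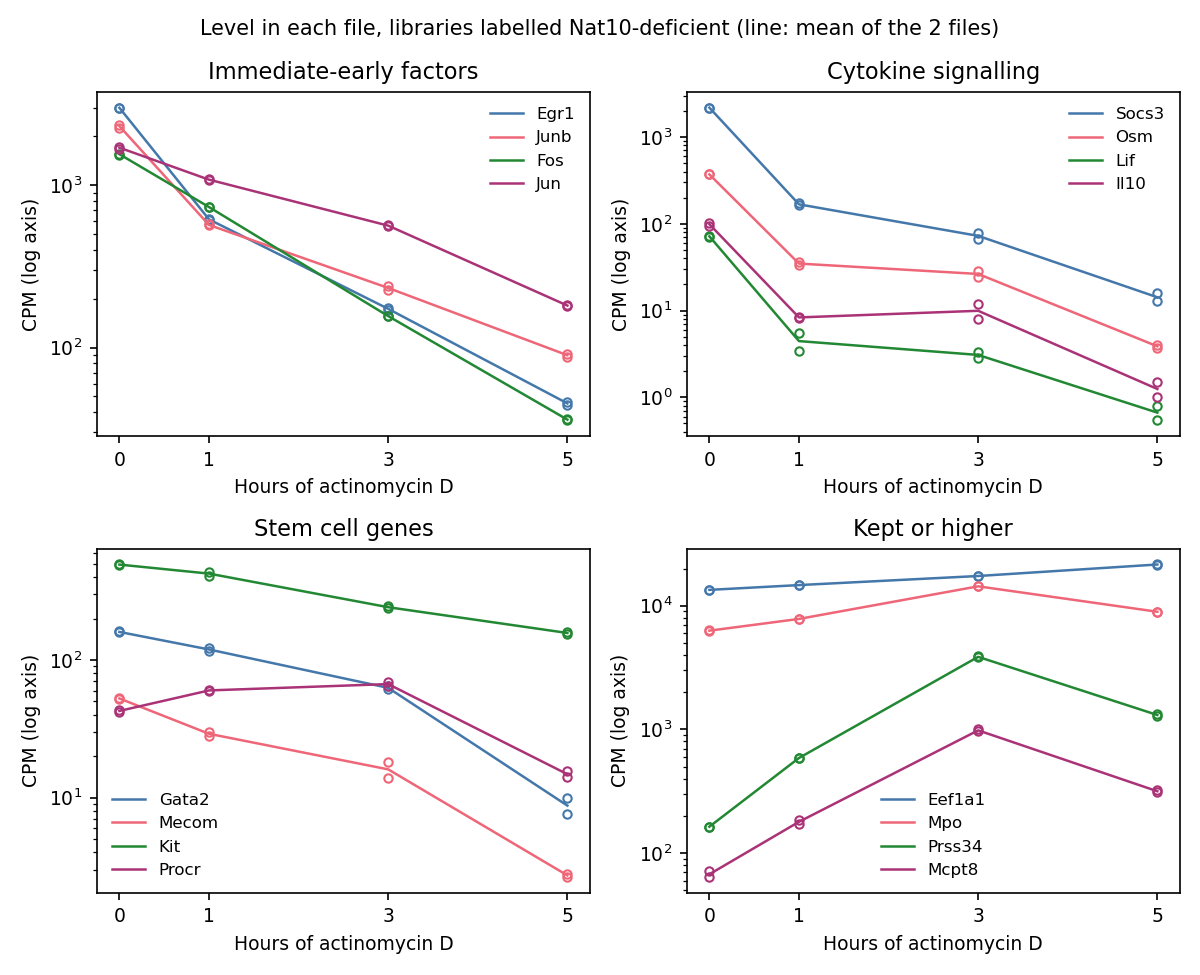
CPM (log axis) of 16 genes in each file labelled Nat10-deficient at 0, 1, 3 and 5 h, with a line through the mean of the 2 files. The immediate-early and cytokine genes drop within the first hour, Procr is higher at 1 and 3 h than at 0 h, and Prss34 and Mcpt8 reach their highest level at 3 h.

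Other lists changed in both directions, against 30.3% lower and 39.9% higher among the better-measured genes. Of 23 integrated stress response genes 10 fell and 7 rose, of 19 cyclin and CDK genes 8 and 2, of 42 ribosome biogenesis factors 16 and 12, of 19 SR splicing factors 7 and 5, of 25 heat shock genes 8 and 14, of 32 interferon genes 9 and 11, and of 24 long noncoding RNAs 9 and 7. Of 36 translation factors 9 fell and 20 rose, of 20 endoplasmic reticulum chaperones 3 and 12, and of 13 genes of the mitochondrial genome 1 and 6. The shares higher were 55.6% for translation factors, 60% for these chaperones and 56% for heat shock genes. These are near the 58.5% of the genes with a mean log2 CPM of at least 8. Hspa1a, an inducible heat shock chaperone, went from 32.5 and 33.0 CPM to 7.62 and 9.80, with reads that can be split with its near-identical copy.

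Among the largest relative rises were basophil genes, though the mast cell and basophil list as a whole went both ways, and genes of unrelated function. Prss34 (chromosome 17, 25517368 to 25519139, GRCm39), a basophil serine protease, went from 164 and 163 CPM to 592 and 583, and was the gene outside the immunoglobulins that also rose per ERCC count among the 7679 better-measured genes (log2 change 1.85 ± 0.027 on gene counts and 0.42 on ERCC counts, adjusted p = 1.81e-26 for the latter). Mcpt8, another basophil protease, went from 71.0 and 63.9 CPM to 185 and 173, which left it at 98.7% per ERCC count. Fcer1a, the IgE receptor chain, was 2.20-fold higher, and the macrophage antigen Cd68 2.15-fold. The lipoxygenase Alox5, the nucleosome assembly protein gene Tspyl2, the deaminase gene Adal and the sialic acid transporter Slc17a5 were 2.35-fold to 2.60-fold higher, with 11.8 to 14.7 CPM at 0 h, and did not pass the test on ERCC counts (adjusted p from 0.0968 to 0.713). Col5a1, a collagen chain, and Sptb, the erythroid spectrin, went from 26.0 and 28.4 to 63.8 and 61.7 and from 25.8 and 26.2 to 56.8 and 62.1 CPM.

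Markers of other cell types were higher in some lists and went both ways in others, against 30.3% lower and 39.9% higher among the better-measured genes. Of 17 erythroid markers 14 were higher and 1 lower (median 0.46; summed level 6164 and 6180 CPM at 0 h, 8456 and 8357 at 1 h), with the carbonic anhydrase Car1 going from 1179 and 1192 CPM to 1875 and 1822. The blood group protein gene Rhd was 1.53-fold higher. Of 20 neutrophil and monocyte markers 13 rose and 2 fell (median 0.38; 12080 and 11960 to 15210 and 15170 CPM), including myeloperoxidase, Mpo, from 6310 and 6266 to 7837 and 7812. Of 11 eosinophil markers 7 rose and 0 fell (median 0.56), with the granule protein gene Prg2 1.51-fold higher. Mast cell and basophil markers had 8 of 18 higher and 5 lower, lymphoid markers 12 of 25 higher and 3 lower, megakaryocyte markers 7 of 18 higher and 4 lower, and stromal and endothelial markers 5 of 19 higher and 6 lower. Plasma cell markers summed to 7227 and 7216 CPM at 0 h and to 10070 and 10010 at 1 h (10 of 16 higher, 4 lower), while their regulators Irf4 and Prdm1 were left at 32.9% and 29.2%. The value of Prdm1 is the less certain. Over the alternatives other than the summed fit its log2 change ranged from -2.25 to -1.41, and that of Irf4 from -1.73 to -1.50. The immunoglobulin share rose to 9.04% and 9.01%, and the antibody chain genes Igkc and Jchain were 1.45-fold and 1.47-fold higher. None of the tested markers in these lists was at 0 counts in all 4 files, and the part of a changed cell mix in the rises was not tested.

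The genes at least 2-fold lower had longer 3′ UTRs, more AU-rich motifs and fewer exons than the others. This used 7442 protein-coding genes with a mean log2 CPM of at least 4 and a 3′ UTR of at least 20 bases in 1 GENCODE M21 transcript, of which 4.35% were at least 2-fold lower. Among genes without ATTTA in the 3′ UTR (2351 genes, searched on the transcript strand) 2.04% were, and the median log2 change was 0.17. With 1 pentamer the share was 3.08%, with 2 it was 5.26%, with 3 to 4 it was 6.79%, with 5 to 7 it was 5.94%, and with 8 or more 7.70% (median -0.16). The nonamer TTATTTATT, which contains the pentamer, was present in 6.96% of all these UTRs, in 14.5% (47 of 324) of those of the genes at least 2-fold lower and in 6.62% of the rest. When genes were split into 4 equal classes of 3′ UTR length, the share at least 2-fold lower was higher with the nonamer than without in all 4, at 2.78% against 1.42% in the shortest class, 11.9% against 3.96% in the next, 11.2% against 5.08% in the third and 8.28% against 5.86% in the longest. The nonamer was present in 36 genes of the shortest class, 1 of them at least 2-fold lower. The Pumilio motif TGTANATA went along as well, with 3.32% at least 2-fold lower without it 7.65% with 1 copy and 6.99% with 2 or more.

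**Figure D4:**
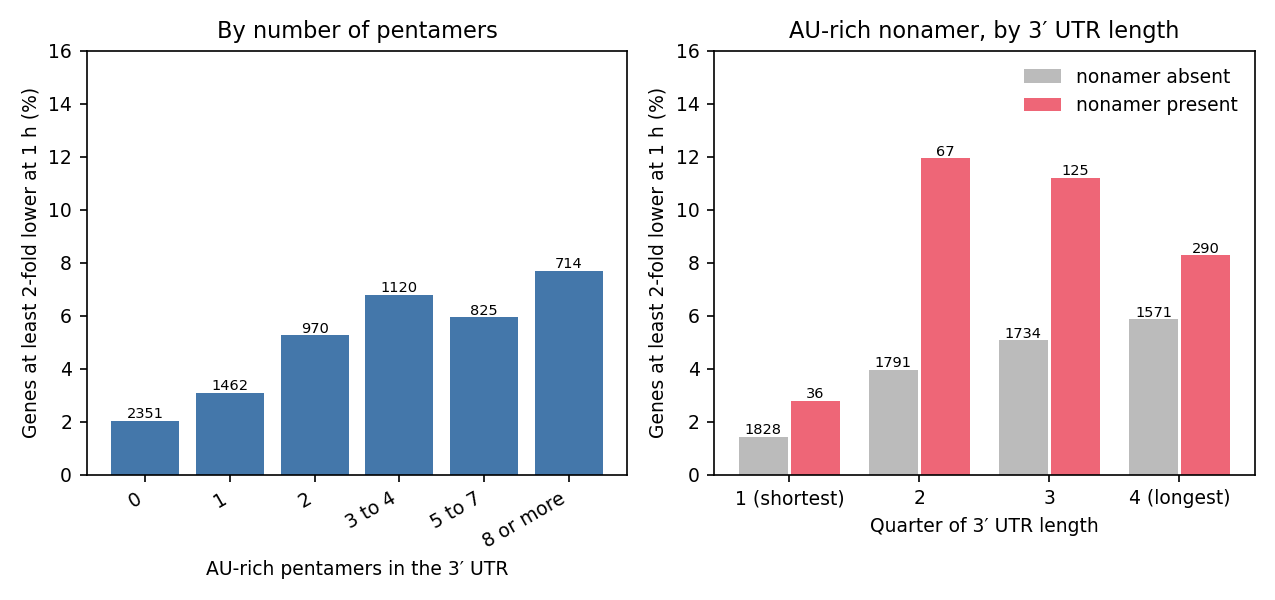
Percent of genes at least 2-fold lower at 1 h by number of AU-rich pentamers in the 3′ UTR (left) and by presence of the AU-rich nonamer within 4 classes of 3′ UTR length (right), with the number of genes above each bar. The share goes from 2.04% without a pentamer to 7.70% with 8 or more, and in each length class the bar with the nonamer is the taller.

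Gene structure differed in the same descriptive way. The 324 genes at least 2-fold lower had a median of 6 exons and 1503 bases of 3′ UTR, and the others 10 exons and 999 bases. Of the 77 genes with a single exon 16.9% were at least 2-fold lower, of those with 2 to 3 exons 12.6%, and of those with 8 to 15 exons 2.75%. Base composition was close, with a median of 57.1% A and T in the 3′ UTRs of the former and 55.6% in the latter. These features are linked with each other across genes, and genes are not independent replicates.

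The mRNAs with a steep first-hour fall that are named here stayed low at the later times, as a description of separate sorts. This did not hold for every mRNA called lower. The G2 and M phase gene Bub1, with a first-hour log2 change of -0.23, exceeded its starting mean of 80.8 CPM by 5 h, with a mean of 126. Egr1 stood at 171 and 175 CPM at 3 h and 44.6 and 46.1 at 5 h, and Nr4a1, which was left at 33.0% after 1 h, at 15.6 and 18.2 and then 0.216 and 0.203. Some mRNAs with a steep first hour hardly moved from 1 to 3 h: Osm stood at 33.5 and 36.0 CPM at 1 h and at 28.7 and 24.2 at 3 h, Icam1 at 171 and 180 and then 191 and 200, and Rel at 27.3 and 30.1 and then 30.1 and 27.7. All of these were lower at 5 h. Prss34 stood at 3894 and 3831 CPM at 3 h, when the immunoglobulin genes were also at their highest share of the 4 times, and Procr at 69.3 and 64.5, against 15.5 and 14.1 at 5 h.

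First-hour changes in WT had other sizes for many of these genes. Over 7778 genes the log2 changes of the genotypes had r = 0.403 (Spearman rho = 0.286), a description across genes of 2 pairs of libraries, and 58.6% had the same sign. An interaction term called 6822 genes (27.2%) with a lower and 5526 (22%) with a higher first-hour change in the libraries labelled Nat10-deficient than in WT. The split became 4950 and 8242 when immunoglobulin genes were kept in the scale. Of the 7679 better-measured genes 2368 had a lower and 2689 a higher change. Of the 12 Egr, Nr4a and Klf factors 8 had a higher and 1 a lower change in the libraries labelled Nat10-deficient than in WT: Nr4a1 changed by -1.60 there and by -2.99 in WT, Egr1 by -2.28 and -3.16, and Egr3 by -2.33 and -3.28. Fos changed by -1.08 and -2.08, Zfp36 by -1.57 and -2.29, and Btg2 by -1.30 and -2.09. The NF-kappaB list went the other way, with 12 of 15 genes lower and 3 higher by the interaction: Nfkbia changed by -1.25 and by -0.25 in WT, and Relb by -1.50 and 0.54. The cytokine genes below WT included Il10 at -3.57 and 0.10 and Osm at -3.41 and -1.37.

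Markers of other cells differed between the genotypes as well. In WT all 16 tested plasma cell markers rose in the first hour (median log2 change 2.47), the immunoglobulin share went from at most 3.63% to at least 25.4%, and the mast cell and basophil markers had a median of 2.06. Genes of large difference included Lilr4b, a leukocyte receptor that changed by -0.87 in the libraries labelled Nat10-deficient and by 4.82 in WT, and Irf4, at -1.60 and 2.60. Of the 30 S phase genes 23 had a higher and 1 a lower change than in WT, where the list's median was -0.27. Among all genes these shares were 22% and 27.2%. Of the 7679 better-measured genes 2689 had a higher and 2368 a lower change. Of the 675 with a mean log2 CPM of at least 8 these counts were 348 and 199. The part of the cell mix in the differences between genotypes was not tested, and since 1 alignment is named for both files of a group, the genotype and the library cannot be told apart.

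**Figure D5:**
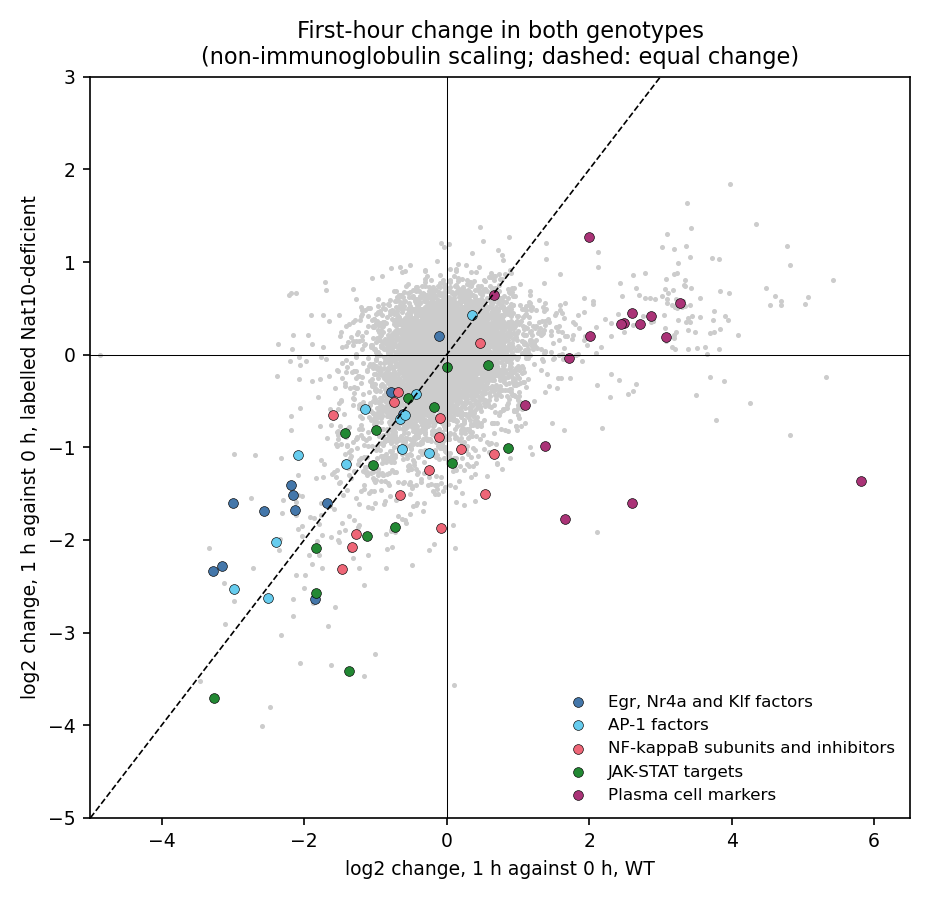
Log2 change from 0 to 1 h in WT (x axis) and in the libraries labelled Nat10-deficient (y axis), for genes with a mean log2 CPM of at least 4 in the latter (grey) and for all tested members of 5 lists (coloured), with a dashed line for equal change. The Egr, Nr4a and Klf factors lie mostly above the line, NF-kappaB genes mostly below it, and plasma cell markers to the right.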

How the data were processed

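Gene-level counts were analysed for polyadenylated RNA of mouse cells sequenced as Smart-seq2 libraries. Per the file headers, the authors made the deposited counts, whole fragments per gene, with featureCounts 1.6.3 over exons, without regard to strand, so a gene and an antisense partner cannot be told apart. The submitters' processing notes also name STAR, DESeq2 and GRCm39. Each file has 55506 entries (92 ERCC). CPM are counts per 1000000 non-immunoglobulin gene counts. The exon length column, another kind of value per the file headers, was used only as a descriptor. Symbols, gene classes and transcripts came from GENCODE M21 (GRCm38) by identifier (94.0% of genes matched), coordinates from the files.

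Genes kept by filterByExpr over the 8 groups were fitted with edgeR 4.0.16 in R 4.3.3 (quasi-likelihood F test, all 16 files in one fit with a term per group, library size set to the counts of genes outside the immunoglobulin genes or to the summed ERCC counts, no TMM factor), with Benjamini-Hochberg adjustment over all genes and a threshold of 0.05. The standard error is the absolute log2 change over the square root of F. DESeq2 1.42.0 was an alternative. Library totals are in the report, and amplified fragments are not independent molecules, since the libraries carry no molecular identifiers, so precision covers counting error only.

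The members and gene lists were chosen with earlier results of these data known. Named genes follow a rule: the 15 largest falls and rises with a mean log2 CPM of at least 4 and files that do not overlap, the 8 largest each way at a mean log2 CPM of at least 8, up to 6 falling and 3 rising members of each list, the 5 largest genotype differences each way, and 30 fixed genes. The rule picks 355 genes, of which the text gives a part, chosen after their values were seen. A few genes are not reported here.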

Additional observations from a re-analysis of the deposited data

Results flagged for a closer look

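The difference of the first-hour log2 change, libraries labelled Nat10-deficient minus WT, was tested as an interaction (edgeR quasi-likelihood test) and passed the adjusted threshold for each gene named here, between 2 files a group. A negative difference means a larger loss or a smaller rise than in WT, or a loss where WT rose, as for Il10, Relb, Irf4 and Lilr4b.

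Of the 15 NF-kappaB genes 12 lay below WT and 3 above, and of the 19 Bcl2 family genes 9 and 5. Over all genes tested 27.2% lay below WT and 22% above, and of the 7679 better-measured genes 2368 lay below and 2689 above. The difference was -3.66 for Il10, -2.04 for Osm, -2.31 for the Egr corepressor Nab2, -2.05 for Relb, -0.995 for Nfkbia and -1.17 for Bcl2l1. Genes of plasma cells and other mature cells also lay below WT, at -4.21 for Irf4, -2.62 for Igkc, -2.72 for Jchain, -5.69 for Lilr4b, -3.87 for the sialyltransferase St6gal1, -3.86 for the chemokine Ccl6, -2.93 for Mcpt8 and -2.13 for Prss34. Hspa1a, a heat shock gene with a near-identical copy that makes its counts uncertain, lay at -4.02.

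Of the 12 Egr, Nr4a and Klf factors 8 lay above WT and 1 below, of the 12 AP-1 factors 5 and 2, and of the 10 Zfp36, Btg and Tob genes 4 and 3. The shares over all genes tested were 22% above and 27.2% below. Of the 7679 better-measured genes 2689 lay above and 2368 below, so the AP-1 and the Zfp36, Btg and Tob counts are not far from that background. The difference was 1.39 for Nr4a1, 0.999 for Fos, 0.946 for Egr3, 0.876 for Egr1, 0.787 for Btg2 and 0.718 for Zfp36, and -1.26 for Btg1. The lineage genes Gfi1b and Mpo lay above WT, at 1.34 and 1.03. The largest positive differences among genes with a mean log2 CPM of at least 4 were those of Clspn, a replication checkpoint gene, at 2.85, Vezt at 2.78, Anapc10, a subunit of the anaphase-promoting complex, at 2.49, Skp2, an F-box protein gene, at 2.37, and Bloc1s5 at 2.34.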

How the results depend on the processing

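The choices tried were the scaling (TMM factors, all gene counts, long-lived mRNAs, DESeq2 size factors over ERCC), the filter, DESeq2, the files fitted, a replicate block and leaving out each file. Of the values recomputed, 101 counts of genes were within 1.5 times the main count and 27 were not. For single genes 4195 values kept their side of the threshold, and also their direction where they passed in the main fit. Another 159 no longer passed, 29 newly passed, and 16 that passed in the main fit turned direction. A turn of a gene that did not pass in the main fit is not among the 16. Anapc10, for instance, went from 0.12 to -1.30 on gene counts with summed files. Of the list medians 687 stayed within the standard deviation over the 2 replicate numbers and 321 moved further. The latter included 74 with summed files, 39 with long-lived mRNAs, 36 with DESeq2 size factors over ERCC and 31 with TMM factors. Genes with few counts limit the calls at least 2-fold each way. Scaled on gene counts, a minimum mean of 50 counts, which tests fewer genes, gave 3356 lower, 4043 higher, 702 at least 2-fold lower and 235 at least 2-fold higher, and DESeq2 gave 1977 at least 2-fold higher. The median log2 change was -0.0354 with long-lived mRNAs, 0.0299 with no filter, 0.0527 at 50 counts and 0.0664 with summed files. Scaled on ERCC counts, the median was -1.45 with DESeq2 size factors, -1.40 with no filter, -1.38 at 50 counts and -1.16 with summed files. Calls on that scale at 50 counts were 10890 lower, 23 higher, 9468 at least 2-fold lower and 8 at least 2-fold higher. Higher calls were 724 (709 at least 2-fold) with only the files of the contrast and 619 (609) with DESeq2. The interaction at 50 counts gave 3592 lower and 3626 higher. With the files of a group summed, the fit is additive over genotype and has few degrees of freedom, and it gave 0 lower, 0 higher, 0 at least 2-fold lower and 0 at least 2-fold higher on gene counts with edgeR (543 at an unadjusted p under 0.05), and 4179, 3, 4065 and 3 on ERCC counts.

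Leaving out each file in turn gave 4816 to 5201 lower and 5659 to 5765 higher genes on gene counts, with medians of 0 to 0.0086. On ERCC counts it gave 706 to 1024 higher and 697 to 1008 at least 2-fold higher, with medians of -1.34 to -1.30; the lowest counts came from leaving out a 0 h file. Replicate numbers were shared by the groups, but deviations of files with the same number had r = 0.0254 over 7210 genes, so the numbers do not pair the samples. With the replicate block 5845 genes were lower and 6707 higher on gene counts, 17069 and 1077 on ERCC counts, and 6777 and 5509 in the interaction.

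Some genes that passed in the main fit turned direction in the summed fit, which averages both genotypes by construction. On gene counts these were Nat10 (0.12), Gfi1b (-0.21), Mpo (-0.14), Hspa1a (0.11), Lilr4b (1.25), Bloc1s5 (-0.77), Vezt (-0.69) and Clspn (-0.63). On ERCC counts they were Fcer1a (1.04), Cd68 (0.18) and Ccl6 (1.07). With long-lived mRNAs Eef1a1 changed by -0.0015 and its genotype difference was -0.018. With immunoglobulin genes kept in the scale, the genotype difference was 0.22 for Kit, 0.076 for Slc2a1 and 0.067 for Ythdf2. The cause of these other changes was not tested.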
